A study of Mus musculus with 16 samples.

Results

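The tumour necrosis factor (TNF) superfamily pairs cell-surface or secreted ligands with receptors, and the genes examined here were those whose deposited name begins with Tnfsf or Tnfrsf and a number, together with Lta, Ltb, Ltbr, Cd40, Cd40lg, Fas, Fasl, Cd27, Cd70 and Eda2r. They numbered 42 of the 55487 genes in the table, namely 16 ligand genes, 25 receptor genes and 1 antisense RNA gene (Tnfsf13os). Most ligands act as trimers that cluster their receptors. Receptors without a death domain recruit TRAF adaptors that lead to NF-kB and MAP kinase signalling, and death receptors such as Fas can recruit caspases. In mast cells, which store histamine and proteases in granules, IL-33 acts through the receptor ST2 (Il1rl1) and its signalling activates NF-kB.

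RNA was sequenced from bone marrow-derived mouse cells on the C57BL/6 background in 4 groups of 4 libraries: Nbeal2-/- cells with IL-33, WT cells with IL-33, untreated Nbeal2-/- cells and untreated WT cells. Nbeal2 encodes a BEACH-domain protein known for its role in platelet alpha-granules, and the labels name no further allele or agent in any group. They state neither the amount of IL-33, nor the time of exposure, nor how the Nbeal2 allele was made. No label says that replicates came from separate animals or cultures, so p-values measure the spread between these libraries.

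The series title names mast cells, whereas the cell type label names mononuclear cells. All 9 mast cell markers, such as Kit, Fcer1a and Cpa3, were present at 1 count per 1000000 (CPM) or more in a group, with summed levels of 42049 to 64769 CPM. None of 5 B cell or 6 T cell markers reached 1 CPM, and their sums were at most 0.495 and 0.180 CPM. All 3 basophil markers reached 1 CPM, as did 2 of 6 macrophage, 1 of 6 dendritic cell, 1 of 5 neutrophil and 2 of 4 NK cell markers. Of the basophil markers Mcpt8 was higher with IL-33, at means of 51.9 and 97.8 CPM in Nbeal2-/- and WT cells with IL-33 against 7.61 and 5.49 CPM untreated. Prss34 (1.17 and 2.51 CPM with IL-33 against 1.91 and 4.15 CPM untreated) and Cd200r3 (233 and 221 CPM against 302 and 369 CPM) were lower, in the same order of genotypes. Those of NK cells were Ncr1, at means of 9.46 and 9.15 CPM in Nbeal2-/- and WT cells with IL-33 against 0.238 and 0.173 CPM untreated, and Eomes, which moved the other way, at 1.73 and 0.406 CPM with IL-33 against 9.68 and 2.46 CPM untreated, while the NK cell marker Klrb1c had no count. The part of the basophil and NK cell markers in the IL-33 results was not tested. Library totals were 36405209 to 57694499 counts, so that 1 read per 1000000 (RPM) was at least 36.4 counts. Nbeal2 stood at 64.3 to 76.9 CPM in Nbeal2-/- and 183 to 258 CPM in WT cells with IL-33. Untreated, it stood at 85.0 to 103 CPM in Nbeal2-/- and 224 to 448 CPM in WT cells. Transcript counts were thus lower in every Nbeal2-/- library but not absent. The low end of both WT ranges was replicate 1, at 183 CPM with IL-33 and 224 CPM untreated. The next lowest WT values were 248.8 CPM with IL-33 and 412.8 CPM untreated, both in replicate 3. On the third principal component (3.95% of the variance) the 4 highest scores belonged to the libraries carrying replicate number 1. Counts without those libraries are given with the alternatives. Whether these scores are linked to the Nbeal2 level of WT replicate 1 was not tested. The summed level of 4 Y-linked genes ran from 20.3 to 192 CPM in Nbeal2-/- libraries and from 2.31 to 201 CPM in WT libraries. The level recurred under the same replicate number of a genotype, as in WT replicate 4 at 5.41 CPM with IL-33 and 2.31 CPM untreated and in Nbeal2-/- replicate 2 at 23.5 CPM with IL-33 and 20.3 CPM untreated, and libraries of 1 genotype did not all carry the same level.

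The start regions of 3 receptor genes that rose with IL-33 are shown because these genes lie on 1 chromosome and carried large changes. Tnfrsf8 (CD30) and Tnfrsf1b (TNFR2) are neighbours on the minus strand of chromosome 4, 20.3 kb apart, and Tnfrsf9 (4-1BB) lies on the plus strand of the same chromosome. Each window is 300 bases around the start given by RefSeq (GRCm38.p6), written 5′ to 3′, and capitals mark matches to GGGNNTTTCC (the NF-kB motif searched) or TGANTCA (the AP-1 motif searched) on either strand.
Tnfrsf8, chr4:145315115-145315414, minus strand: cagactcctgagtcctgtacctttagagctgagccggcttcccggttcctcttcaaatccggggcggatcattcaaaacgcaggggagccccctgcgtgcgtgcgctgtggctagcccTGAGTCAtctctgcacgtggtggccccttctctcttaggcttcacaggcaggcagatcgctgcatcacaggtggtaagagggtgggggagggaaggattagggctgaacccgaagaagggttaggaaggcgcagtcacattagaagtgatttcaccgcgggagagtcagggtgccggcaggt
Tnfrsf9, second start, chr4:150927749-150928048, plus strand: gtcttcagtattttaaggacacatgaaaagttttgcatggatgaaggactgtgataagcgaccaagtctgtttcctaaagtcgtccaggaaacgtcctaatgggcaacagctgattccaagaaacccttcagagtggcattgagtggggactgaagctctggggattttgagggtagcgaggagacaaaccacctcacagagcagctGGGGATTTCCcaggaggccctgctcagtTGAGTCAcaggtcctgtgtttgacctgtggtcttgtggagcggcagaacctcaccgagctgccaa
Tnfrsf1b, chr4:145246821-145247120, minus strand: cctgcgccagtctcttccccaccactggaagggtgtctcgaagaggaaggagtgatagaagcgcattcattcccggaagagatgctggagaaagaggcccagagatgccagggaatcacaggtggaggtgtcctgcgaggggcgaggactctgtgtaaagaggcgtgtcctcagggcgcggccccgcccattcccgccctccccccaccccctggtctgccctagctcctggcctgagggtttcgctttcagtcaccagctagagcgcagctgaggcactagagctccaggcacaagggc

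In the second Tnfrsf9 window the NF-kB match began at position -43 and the AP-1 match at -15 from the start, and the first Tnfrsf9 window held neither. The AP-1 match of Tnfrsf8 began at -132, and the Tnfrsf1b window held neither motif. Windows were found for 31 members. Of the 7 members at 1 RPM or more that were over 2-fold higher with IL-33 in both genotypes, 5 had a window, of which 1 held the NF-kB motif and 3 the AP-1 motif (Fas, Tnfrsf8 and Tnfrsf9). The motifs were present in 1.6% and 7.8% of all 32851 windows. Of all 31 members with a window, 3 held the NF-kB motif (Ltb, Tnfrsf25 and Tnfrsf9) and 6 the AP-1 motif. The 31 members had 35 windows, and 4 members had more than 1. A member was counted if any of its windows matched, whereas the percentages are per window. The AP-1 motif also stood in windows of Tnfsf14 and Tnfsf13, which fell with IL-33. It stood in those of Tnfsf13b too, which was not called in either genotype. A match is a description of the letters only.

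At least 1 RPM in the mean of a group was reached by 22 members, 8 ligands and 14 receptors. The other 20 were below 1 RPM in all 4 groups and are named as not expressed by that rule. They were the ligands Cd40lg, Fasl, Lta, Tnfsf11 (RANKL), Tnfsf13 (APRIL), Tnfsf13b (BAFF), Tnfsf15 and Tnfsf18 (the ligand of GITR), the receptors Cd27, Cd40, Tnfrsf1a, Tnfrsf11a (RANK), Tnfrsf13c, Tnfrsf17, Tnfrsf19, Tnfrsf22, Tnfrsf23, Tnfrsf25 and Tnfrsf26, and Tnfsf13os. Cd40lg, Tnfsf11 and Tnfrsf19 had no count in any library. Tnfrsf1a (TNFR1), the widely expressed death-domain receptor for TNF, had 5, 2, 2 and 6 counts over the 4 libraries of Nbeal2-/- cells with IL-33, WT cells with IL-33, untreated Nbeal2-/- cells and untreated WT cells. Tnfrsf1b (TNFR2), the other TNF receptor, averaged 18.1, 22.9, 5.04 and 5.47 RPKM (reads per kilobase of gene and per 1000000 reads, as deposited) in the same groups. The test was run on 27 members that passed the filter on low counts, 5 of them below 1 RPM (Lta, Tnfsf13, Tnfsf13b, Cd40 and Tnfrsf11a). The other 15 were not tested and had at most 43 counts over the 4 libraries of a group.

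Per length, in the deposited RPKM, Tnfrsf9 was first among the members in cells with IL-33, at 123 ± 5.48 RPKM in Nbeal2-/- and 116 ± 14.7 RPKM in WT cells (SD, n = 4 each). It made up 53.8% and 52.0% of the summed receptor RPKM in those groups, against 6.2% in untreated Nbeal2-/- and 4.6% in untreated WT cells. Without IL-33 the leading members were Tnfrsf13b (TACI, a receptor for BAFF and APRIL) and Tnfrsf18 (GITR). Tnfrsf13b stood at 24.4 ± 0.876 and Tnfrsf18 at 23.6 ± 2.57 RPKM in untreated Nbeal2-/- cells, and at 26.5 ± 0.454 and 27.7 ± 2.04 RPKM in untreated WT cells, and within each of these groups the level of Tnfrsf13b did not differ from that of Tnfrsf18 beyond their spread. Summed receptor RPKM was 228 and 223 in Nbeal2-/- and WT cells with IL-33 and 83.6 and 91.4 in untreated Nbeal2-/- and WT cells. Summed ligand RPKM was 53.4 and 55.2 with IL-33 and 59.5 and 59.3 without it, in the same order of genotypes. These sums do not carry the library scaling used in the fit (TMM). Its factors were 0.951 to 0.977 with IL-33 and 1.02 to 1.06 untreated, so small differences of sums between conditions are not read as changes.

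IL-33 was followed by changes in most tested members. In Nbeal2-/- cells 15 of 27 were higher and 7 lower than in untreated cells (edgeR quasi-likelihood, Benjamini-Hochberg adjusted p under 0.05 over 15470 genes). The same rule called 27.2% of all genes higher and 27.9% lower. In WT cells 15 were higher and 8 lower, against 28.9% and 28.6% of all genes. Over 2-fold, 9 members were higher and 1 lower in Nbeal2-/- cells, where 5.77% and 6.71% of all genes were, and 11 higher and 3 lower in WT cells, where 5.48% and 7.61% were. Tnfrsf10b and Lta were over that cutoff for higher levels in WT cells alone. Tnfrsf10b lay at the cutoff (log2 0.997 in Nbeal2-/- and 1.001 in WT cells), and Lta was below 1 RPM. The difference of responses was called for neither. The median log2 fold change of the tested members was 0.42 in Nbeal2-/- cells and 0.34 in WT cells, against -0.01 and 0.00 over all tested genes. Cd70, Cd40 and Tnfrsf11a passed the filter through the IL-33 libraries alone and Tnfsf13 through the untreated libraries alone, so they had to differ in that direction to pass. Of the 23 members that passed in both conditions, 12 were higher and 6 lower in Nbeal2-/- cells (6 and 0 over 2-fold), against 27.6% and 27.8% (4.40% and 5.06% over 2-fold) of the 14263 genes that did so. In WT cells 12 were higher and 7 lower (8 and 2 over 2-fold), against 29.4% and 28.3% (4.09% and 5.81% over 2-fold). Their median log2 fold changes were 0.41 in Nbeal2-/- and 0.28 in WT cells. In bulk RNA, fewer cells of a type and less RNA per cell cannot be told apart.

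**Figure D1:**
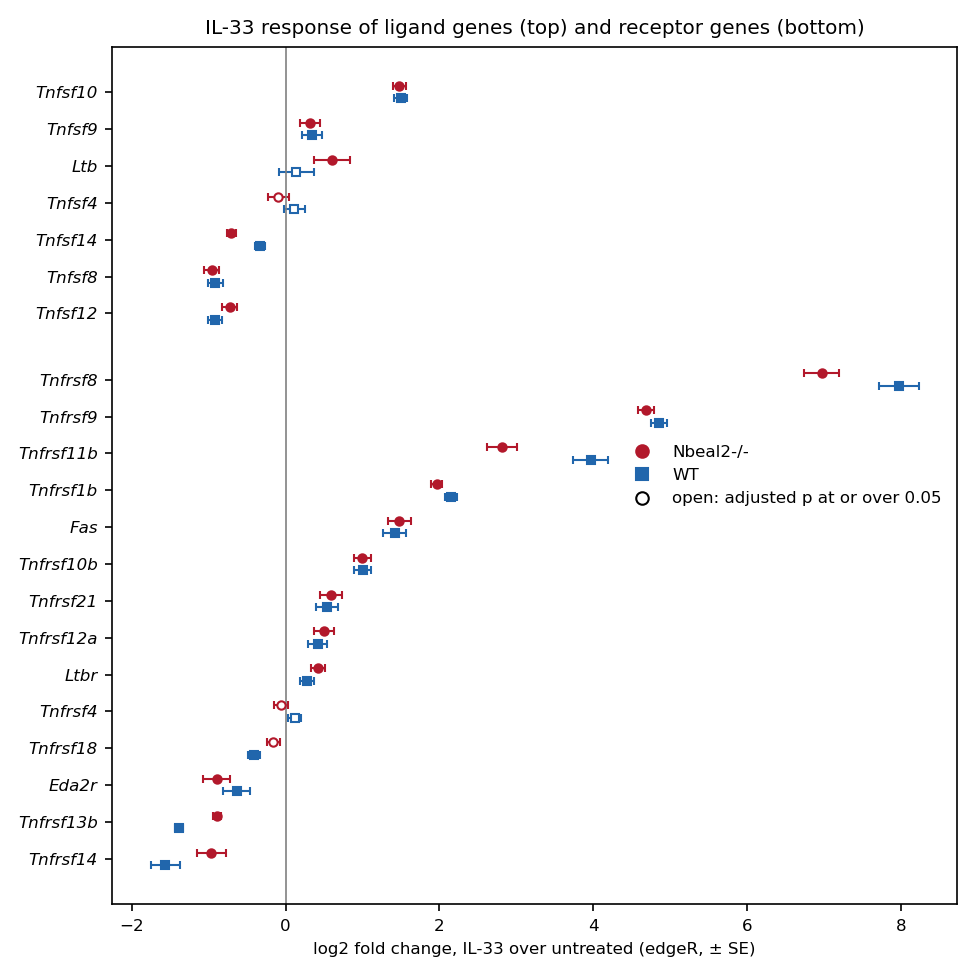
Log2 fold change of IL-33 over untreated cells with its standard error for 21 of the 22 members at 1 RPM or more, ligands above receptors, in Nbeal2-/- (circles, upper) and WT (squares, lower) cells; open symbols did not pass an adjusted p of 0.05. Cd70 is left out because it had 1 and 0 counts without IL-33, and Tnfrsf8 and Tnfrsf9 lie farthest to the right in both genotypes.

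Cd70, a ligand of the costimulatory receptor CD27, was found almost only in cells with IL-33. It stood at 1.35, 1.75, 1.37 and 1.80 CPM in Nbeal2-/- cells with IL-33, and in the untreated Nbeal2-/- libraries 3 had no count and the other 0.0214 CPM. In WT cells with IL-33 it stood at 1.25, 1.26, 1.67 and 1.17 CPM, and no untreated WT library had a count. The ratio of IL-33 to untreated was 313 in Nbeal2-/- cells (255 counts against 1, exact 95% counting interval 55.7 to 12426). In WT cells it was at least 84.7-fold higher (238 counts against 0, set against 3 counts over the group). Cd27 had at most 7 counts in a group, and Cd40, below 1 RPM, was at least 29.1-fold higher in Nbeal2-/- cells (71 counts against 0) and at least 19.6-fold higher in WT cells (55 counts against 0).

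Tnfsf10 encodes TRAIL, the ligand of the TRAIL death receptor. For Tnfsf10 the libraries held 83.8, 84.3, 86.8 and 79.5 CPM in Nbeal2-/- cells with IL-33, against 26.3, 30.9, 29.5 and 33.2 CPM untreated, and 81.4, 86.6, 85.9 and 78.1 CPM in WT cells with IL-33, against 24.1, 32.6, 32.1 and 28.9 CPM untreated. TRAIL thus rose by 1.48 ± 0.08 and 1.50 ± 0.08 on the log2 scale in Nbeal2-/- and WT cells (adjusted p = 8.44e-11 and 6.94e-11, edgeR), and the groups did not overlap.

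Among the receptors at 1 RPM or more, Tnfrsf8 and Tnfrsf9 gave the largest fitted increases in both genotypes. Tnfrsf9, a costimulatory receptor also known as 4-1BB or CD137 (ENSMUSG00000028965, chromosome 4 at 150914562 to 150946102, GRCm38), stood at 363, 345, 361 and 324 CPM in the Nbeal2-/- libraries with IL-33, against 14.9, 12.3, 13.1 and 13.6 CPM in the untreated ones. WT libraries had 332, 331, 274 and 367 CPM with IL-33, against 13.1, 11.0, 9.42 and 11.4 CPM untreated. Every IL-33 library lay above every untreated library. The log2 fold changes were 4.69 ± 0.10 in Nbeal2-/- cells (SE, adjusted p = 4.22e-16, edgeR) and 4.86 ± 0.10 in WT cells (adjusted p = 3.5e-16).

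Tnfrsf8, the CD30 receptor (ENSMUSG00000028602, chromosome 4 at 145267137 to 145315164), was below 1 CPM in every library without IL-33. It stood at 85.3, 61.0, 61.9 and 52.3 CPM in Nbeal2-/- cells with IL-33, against 0.734, 0.512, 0.265 and 0.557 CPM in untreated ones. In WT cells it stood at 52.2, 55.6, 67.1 and 73.2 CPM with IL-33, against 0.284, 0.0990, 0.222 and 0.327 CPM untreated. The groups did not overlap in either genotype, and the log2 fold changes were 6.97 ± 0.23 and 7.98 ± 0.26 in Nbeal2-/- and WT cells (adjusted p = 1.59e-13 and 1.16e-13, edgeR). The untreated levels rest on 104 and 47 counts over the 4 Nbeal2-/- and the 4 WT libraries. Without IL-33 the level in Nbeal2-/- cells gave a log2 difference of 1.08 from WT with overlapping libraries, which did not pass the test (adjusted p = 0.0665, edgeR). It passed by DESeq2 (log2 1.09, adjusted p = 0.00593) and without untreated Nbeal2-/- replicate 3 (log2 1.29, adjusted p = 0.0282, edgeR).

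Its neighbour Tnfrsf1b (TNFR2), which binds TNF without a death domain, was at 73.1, 66.8, 73.5 and 74.1 CPM in Nbeal2-/- cells with IL-33, against 17.1, 18.5, 18.5 and 19.7 CPM in untreated ones. WT cells had 102, 79.9, 83.7 and 95.3 CPM with IL-33, against 21.5, 18.4, 19.8 and 21.4 CPM untreated. The log2 fold changes were 1.96 ± 0.08 in Nbeal2-/- cells and 2.15 ± 0.08 in WT cells (adjusted p = 5.22e-13 and 1.54e-13, edgeR), with no overlap of the groups.

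The death receptors Fas and Tnfrsf10b (the mouse TRAIL receptor) also rose in both genotypes. Fas was at 4.79, 5.19, 3.71 and 4.66 CPM in Nbeal2-/- cells with IL-33, against 1.63, 1.52, 1.59 and 1.86 CPM in untreated ones, and at 4.57, 4.08, 5.42 and 3.48 CPM in WT cells with IL-33, against 1.90, 1.44, 1.88 and 1.34 CPM in untreated ones. Its log2 fold changes were 1.48 ± 0.15 and 1.42 ± 0.15 in Nbeal2-/- and WT cells (adjusted p = 2.06e-07 and 3.42e-07, edgeR). Its ligand Fasl had at most 5 counts in any group. Tnfrsf10b had 8.74, 7.57, 8.97 and 9.96 CPM in Nbeal2-/- cells with IL-33, against 4.05, 4.39, 3.79 and 5.44 CPM untreated, and 8.94, 9.58, 9.97 and 8.57 CPM in WT cells with IL-33, against 4.10, 5.30, 4.77 and 4.39 CPM untreated. That is a log2 fold change of 1.00 ± 0.11 in each genotype (adjusted p = 7.16e-07 in Nbeal2-/- and 6.07e-07 in WT, edgeR). Neither gene had overlapping groups.

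**Figure D2:**
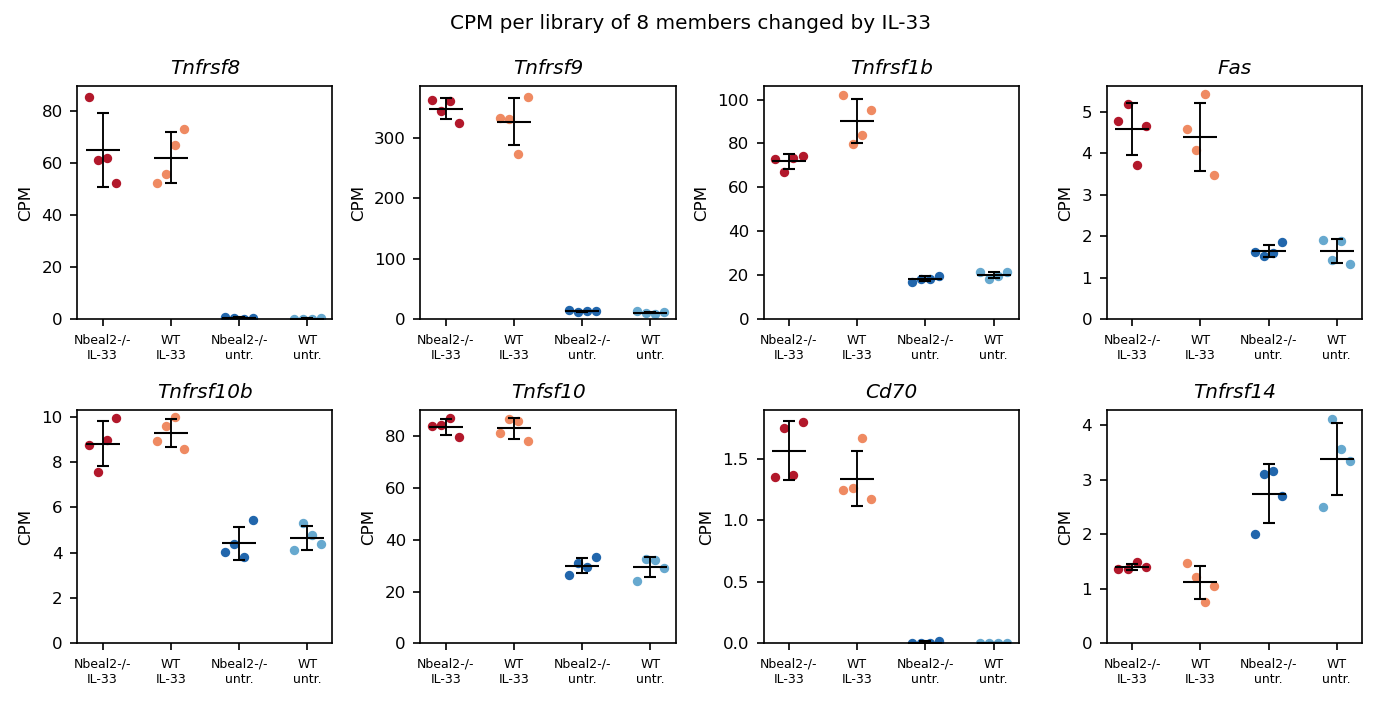
CPM in each library (points), with the mean and SD (bars, n = 4), for 8 members in Nbeal2-/- cells with IL-33, WT cells with IL-33, untreated Nbeal2-/- cells and untreated WT cells; all axes start at 0. Tnfrsf14 is lower in cells with IL-33 and the other 7 are higher, with no overlap between IL-33 and untreated libraries of the same genotype.

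Smaller increases were seen in receptors that signal through TRAFs or death domains. Tnfrsf21 (DR6) rose by 0.59 ± 0.14 and 0.54 ± 0.14, Tnfrsf12a (Fn14, the TWEAK receptor) by 0.49 ± 0.13 and 0.41 ± 0.13, and Ltbr (the lymphotoxin beta receptor) by 0.42 ± 0.09 and 0.28 ± 0.09, each as log2 in Nbeal2-/- and WT cells (SE). Tnfsf9, the 4-1BB ligand, rose by 0.32 ± 0.13 and 0.34 ± 0.13 with overlapping groups. Between libraries of the same number its log2 difference was 0.13 to 0.57 in Nbeal2-/- and 0.23 to 0.61 in WT cells, positive in all 4 pairs of each, and both calls were kept with the replicate block. Ltb rose by 0.60 ± 0.23 in Nbeal2-/- cells (adjusted p = 0.0348, edgeR) but was not called in WT cells (0.14 ± 0.23). Its difference of responses was not called (0.47 ± 0.32, adjusted p = 0.462, edgeR). The calls of Ltb and Tnfsf9 and the WT call of Ltbr did not hold without some single libraries in fits without the block, as given with the alternatives. Tnfsf9 shares 14.9% of its exon bases with a gene on the opposite strand, Gm11110, and the strand setting of the counting is not given in the sources used here. Among members under 1 RPM, Lta rose by 1.29 ± 0.43 in WT cells (adjusted p = 0.0151, edgeR) and was not called in Nbeal2-/- cells (0.41 ± 0.34), and Tnfsf13b was called in neither. Tnfrsf11a rose by 2.94 ± 0.37 and 3.63 ± 0.41, and Tnfsf13 fell by 1.24 ± 0.29 and 1.25 ± 0.29, on the log2 scale in Nbeal2-/- and WT cells, with 60.0% of the exon bases of Tnfsf13 shared with the read-through gene Tnfsfm13.

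Several ligands and receptors fell with IL-33. Tnfsf8, the CD30 ligand, fell by 0.96 ± 0.10 and 0.92 ± 0.10 on the log2 scale in Nbeal2-/- and WT cells, opposite in direction to its receptor Tnfrsf8. Tnfsf12 (TWEAK) fell by 0.73 ± 0.09 and 0.92 ± 0.09, and 48.3% of its exon bases are shared with Tnfsfm13 too, so its counts are uncertain. Eda2r (XEDAR) fell by 0.90 ± 0.18 and 0.64 ± 0.18. Tnfrsf14 (HVEM), a receptor for LIGHT, was at 1.37, 1.36, 1.49 and 1.40 CPM in Nbeal2-/- cells with IL-33, against 2.00, 3.11, 3.16 and 2.70 CPM untreated, and at 1.48, 1.21, 0.755 and 1.04 CPM in WT cells with IL-33, against 2.50, 4.11, 3.56 and 3.34 CPM untreated. These are log2 fold changes of -0.97 ± 0.19 and -1.56 ± 0.19 in Nbeal2-/- and WT cells (adjusted p = 0.000333 and 1.84e-06, edgeR), with no overlap. Tnfrsf18 (GITR) fell by 0.41 ± 0.08 in WT cells (adjusted p = 0.000373, edgeR) and gave -0.16 ± 0.08 in Nbeal2-/- cells, which was not called. The Nbeal2-/- fall was called with library totals (-0.27, adjusted p = 0.00801, edgeR), by limma (-0.26, adjusted p = 0.00955) and without untreated replicate 2 (-0.21, adjusted p = 0.0426, edgeR). Its difference of responses was not called (0.25, adjusted p = 0.250, edgeR), except without the 4 libraries numbered 1 (0.36, adjusted p = 0.0197, edgeR). Of the exon bases of Tnfrsf18, 27.2% are shared with Gm16008 on the opposite strand. The OX40 ligand Tnfsf4 and its receptor Tnfrsf4 were not called in either genotype, with log2 values of -0.09 ± 0.14 and 0.11 ± 0.14 for Tnfsf4 and -0.06 ± 0.09 and 0.12 ± 0.09 for Tnfrsf4 in Nbeal2-/- and WT cells.

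Set out as 23 textbook ligand and receptor pairs, which were chosen after the values were seen, 9 pairs had both genes at 1 RPM or more, 6 had the receptor alone, 1 had the ligand alone (Cd70 with Cd27) and 7 had neither. In 4-1BB and both TRAIL pairs listed (with Tnfrsf10b and with the decoy Tnfrsf11b) ligand and receptor were both called higher with IL-33. For CD30 and TWEAK the ligand was called lower and the receptor higher. LIGHT (Tnfsf14) and its receptor HVEM were both called lower, while Ltbr, another LIGHT receptor, was called higher. For Ltb and Ltbr the receptor was called higher in both genotypes and the ligand in Nbeal2-/- cells alone. The difference of responses was not called for Ltb. The OX40 pair was called in neither direction. The calls of Tnfsf9 and Ltb and the WT call of Ltbr did not hold without some single libraries.

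**Figure D3:**
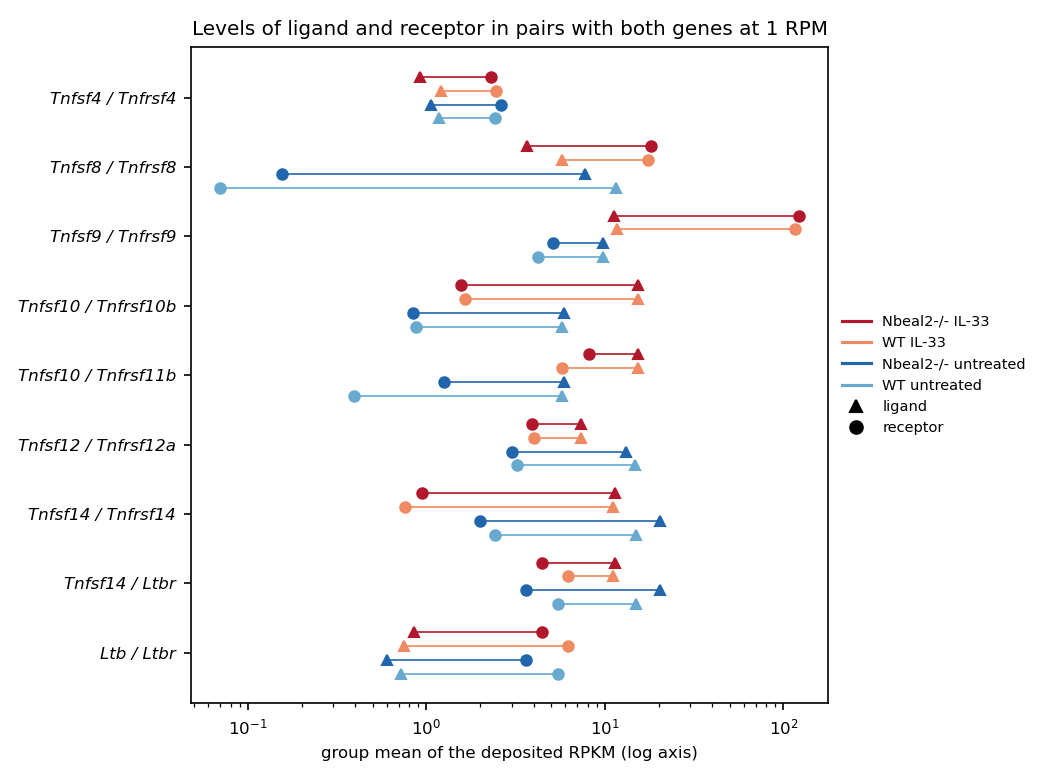
Group means of the deposited RPKM on a log axis for ligands (triangles) and receptors (circles) of the 9 pairs with both genes at 1 RPM or more, coloured by group, with Nbeal2-/- cells with IL-33 above WT cells with IL-33, untreated Nbeal2-/- cells and untreated WT cells. Tnfrsf8 lies below its ligand Tnfsf8 without IL-33 and above it with IL-33, and Tnfrsf9 likewise crosses Tnfsf9.

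Genotype was followed by fewer and smaller differences than IL-33, among the members as among all genes. With IL-33, 1 of 27 was higher and 3 lower in Nbeal2-/- than in WT cells, against 5.49% and 5.69% of all genes. In untreated cells 4 were higher and 4 lower, shares near those of all genes (18.4% and 17.5%). The median absolute log2 difference of the tested members was 0.09 with IL-33 and 0.18 untreated, near the 0.11 and 0.19 of all genes. The genotype and IL-33 comparisons share groups of libraries and are not independent. The mast cell marker sum was lower in Nbeal2-/- cells, at 51187 to 55597 CPM against 61717 to 64769 CPM in WT cells with IL-33, and at 42049 to 48208 CPM against 57274 to 60119 CPM in untreated WT cells. The largest gap in that sum was in Tpsb2, at means of 11083 and 18628 CPM in Nbeal2-/- and WT cells with IL-33 and 3136 and 9761 CPM untreated. With IL-33 the mast cell markers Fcer1a (5327 and 5109 CPM) and Gata2 (2130 and 2109 CPM) were not lower, and Cpa3 (15388 and 15507 CPM) and Ms4a2 (1806 and 1827 CPM) were close in the 2 genotypes. Kit (1143 and 1626 CPM), Il1rl1 (3844 and 4413 CPM), Cma1 (12600 and 14125 CPM) and Hdc (27.2 and 36.3 CPM) were lower. Untreated, the mean of every mast cell marker was lower in Nbeal2-/- cells. Examples were Kit (2470 and 3855 CPM) and Il1rl1 (3491 and 4370 CPM), while Hdc was nearly equal (6.63 and 6.65 CPM). For macrophages, 2 of 6 markers reached 1 CPM, and the sum was 22.2 to 27.2 CPM against 16.3 to 20.6 CPM with IL-33, and 25.1 to 35.1 CPM against 15.7 to 17.0 CPM untreated, each Nbeal2-/- against WT. The sum followed Adgre1 alone, at means of 20.8 and 11.7 CPM in Nbeal2-/- and WT cells with IL-33 and 25.2 and 8.42 CPM untreated. Cd68 went the other way, at 4.66 and 6.59 CPM with IL-33 and 5.23 and 7.72 CPM untreated, and the other 4 were below 1 CPM. Their part in the results was not tested.

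Tnfsf8 and Ltbr were lower in Nbeal2-/- cells under both conditions; their values in every library are given here because of that pattern, seen in the data. Tnfsf8 was at 14.7, 13.9, 15.9 and 13.9 CPM in Nbeal2-/- cells with IL-33, against 22.2, 24.7, 22.9 and 20.5 CPM in WT cells with IL-33. Untreated, it was at 23.9, 31.2, 31.1 and 27.5 CPM in Nbeal2-/- cells, against 37.1, 49.2, 45.8 and 38.5 CPM in WT cells. The log2 differences of the CD30 ligand were -0.63 ± 0.10 with IL-33 (adjusted p = 0.000537, edgeR) and -0.58 ± 0.10 untreated (adjusted p = 0.00024), with no overlap. Ltbr, which binds lymphotoxin and LIGHT, was at 11.8, 10.4, 10.5 and 10.8 CPM in Nbeal2-/- cells with IL-33, against 14.5, 16.2, 15.8 and 14.1 CPM in WT cells with IL-33. Untreated, Ltbr was at 9.72, 7.41, 8.26 and 7.21 CPM in Nbeal2-/- cells, against 12.0, 12.2, 14.1 and 11.7 CPM in WT cells. The log2 differences were -0.48 ± 0.09 with IL-33 (adjusted p = 0.00205, edgeR) and -0.62 ± 0.09 untreated (adjusted p = 8.44e-05), again with no overlap. Tnfrsf1b, whose values are above, was lower in Nbeal2-/- cells with IL-33 (log2 -0.33 ± 0.07, adjusted p = 0.00601, edgeR) and was not called in untreated cells (-0.14 ± 0.08).

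Tnfrsf11b, Tnfrsf13b and Tnfsf14 were the members in which the IL-33 response itself differed between genotypes, as tested by the difference of the responses. This test called 1 of 27 members higher and 2 lower in Nbeal2-/- cells, against 2.01% and 2.55% of all genes. Neither this test nor the fits leaving out 1 library used the pairing of same-numbered libraries. Within these pairs the log2 change of Tnfrsf11b with IL-33 was 2.66 to 3.00 in Nbeal2-/- and 3.72 to 4.46 in WT cells. That of Tnfrsf13b was -0.92 to -0.83 and -1.45 to -1.31, and that of Tnfsf14 -0.76 to -0.61 and -0.50 to -0.24, in the same order.

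Tnfrsf13b (TACI; ENSMUSG00000010142, chromosome 11 at 61126755 to 61149372) fell less in Nbeal2-/- cells. It was at 38.2, 34.5, 36.9 and 33.4 CPM in Nbeal2-/- cells with IL-33, against 67.8, 64.6, 70.0 and 63.3 CPM untreated, and at 29.0, 27.5, 27.8 and 27.3 CPM in WT cells with IL-33, against 71.9, 75.0, 72.5 and 72.8 CPM untreated. The log2 fold changes of IL-33 were -0.89 ± 0.05 in Nbeal2-/- and -1.39 ± 0.05 in WT cells, a difference of 0.49 ± 0.07 (adjusted p = 0.000828, edgeR). Between genotypes TACI was higher in Nbeal2-/- cells with IL-33 (0.36 ± 0.05, adjusted p = 0.000115, edgeR) and lower in untreated ones (-0.14 ± 0.05, adjusted p = 0.0292), the second of which was lost without untreated replicate 2 or 4 of either genotype (values of -0.14 to -0.11).

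Tnfrsf11b (osteoprotegerin; ENSMUSG00000063727, chromosome 15 at 54250619 to 54278484), a secreted decoy receptor for RANKL and TRAIL, had a higher level in untreated Nbeal2-/- cells and a smaller fold response. It was at 32.7, 19.3, 24.0 and 19.8 CPM in Nbeal2-/- cells with IL-33, against 4.82, 2.41, 3.32 and 3.13 CPM untreated, and at 14.3, 18.3, 18.5 and 16.3 CPM in WT cells with IL-33, against 1.01, 1.19, 0.841 and 1.23 CPM untreated. In both genotypes the groups stood apart. IL-33 gave log2 fold changes of 2.81 ± 0.19 and 3.96 ± 0.22 in Nbeal2-/- and WT cells, a difference of -1.15 ± 0.30 (adjusted p = 0.0326, edgeR), and of the 16 fits leaving out 1 library the call was lost in 11 and kept in those without replicate 1 with IL-33 of either genotype, untreated Nbeal2-/- replicate 2 or 3, or untreated WT replicate 4 (log2 values of -1.34 to -0.94, adjusted p of 0.0101 to 0.0691). Untreated Nbeal2-/- cells were higher than untreated WT cells by 1.67 ± 0.24 on the log2 scale (adjusted p = 7.14e-05, edgeR). With IL-33 the difference was 0.51 ± 0.17 with no overlap but did not pass (adjusted p = 0.0661, edgeR). It passed by DESeq2 (0.51, adjusted p = 0.0416) and without Nbeal2-/- replicate 2 with IL-33 (0.60, adjusted p = 0.0466, edgeR), and was 0.25 without the 4 libraries numbered 1 (adjusted p = 0.161, edgeR).

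Tnfsf14 (LIGHT; ENSMUSG00000005824, chromosome 17 at 57189492 to 57194177) fell more in Nbeal2-/- cells. It was at 20.8, 23.3, 21.1 and 22.8 CPM in Nbeal2-/- cells with IL-33, against 33.4, 39.4, 35.7 and 34.9 CPM untreated, and at 23.1, 20.6, 21.8 and 19.8 CPM in WT cells with IL-33, against 27.2, 25.7, 26.5 and 27.9 CPM untreated. With IL-33 the genotypes overlapped, and without it every Nbeal2-/- library was above every WT library. The fold changes of IL-33 were -0.71 ± 0.06 and -0.33 ± 0.06 on the log2 scale in Nbeal2-/- and WT cells, a difference of -0.37 ± 0.09 (adjusted p = 0.0200, edgeR), which was -0.35 without the first Nbeal2-/- library with IL-33 (adjusted p = 0.0508). Untreated Nbeal2-/- cells were higher by 0.42 ± 0.06 (adjusted p = 7.88e-05, edgeR).

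**Figure D4:**
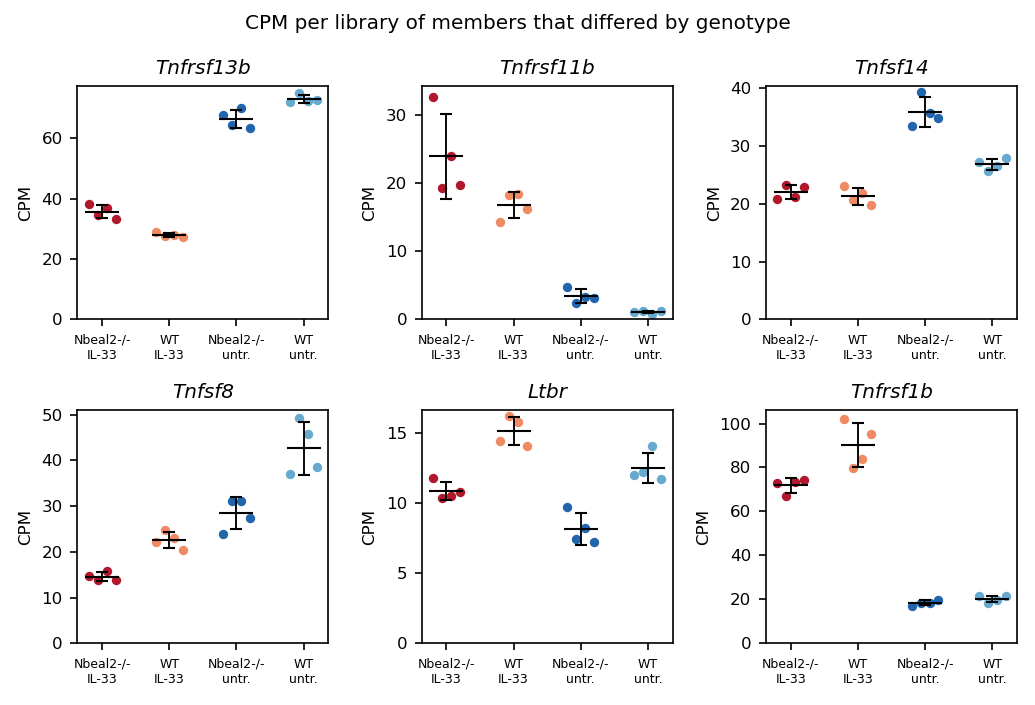
CPM in each library (points), with the mean and SD (bars, n = 4), for 6 members called in a comparison of genotypes or of responses, in Nbeal2-/- cells with IL-33, WT cells with IL-33, untreated Nbeal2-/- cells and untreated WT cells; all axes start at 0. Tnfsf8 and Ltbr are lower in Nbeal2-/- than in WT cells with and without IL-33, whereas Tnfsf14 separates the genotypes without IL-33 only.

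The remaining calls in untreated cells were less secure. Tnfrsf9 gave a log2 difference of 0.26 ± 0.10 between Nbeal2-/- and WT cells (adjusted p = 0.0464, edgeR) with overlapping libraries, and Tnfrsf18 one of -0.25 ± 0.08 (adjusted p = 0.0257). Tnfrsf9 lost the call without Nbeal2-/- replicate 1, 3 or 4 or WT replicate 2, 3 or 4, and Tnfrsf18 without Nbeal2-/- replicate 2 or 4 or WT replicate 1. Lta, the lymphotoxin alpha gene, stayed below 1 RPM and was at 0.992, 0.348, 0.632 and 0.706 CPM in untreated Nbeal2-/- cells, against 0.160, 0.223, 0.272 and 0.163 CPM in untreated WT cells (log2 difference 1.72 ± 0.41, adjusted p = 0.00362, edgeR).

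TNF itself is outside the naming rule; Tnf averaged 83.0 ± 4.67 CPM in Nbeal2-/- and 91.8 ± 5.56 CPM in WT cells with IL-33, and 15.5 ± 1.52 and 12.0 ± 0.628 CPM in untreated Nbeal2-/- and WT cells (SD, n = 4 each). It rose by 2.42 ± 0.07 and 2.93 ± 0.07 on the log2 scale in Nbeal2-/- and WT cells, and the responses differed by -0.51 ± 0.10 (adjusted p = 0.00561, edgeR). Ngfr, the neurotrophin receptor p75, had log2 fold changes of -4.42 ± 0.21 and -4.97 ± 0.21, and Relt of -0.56 ± 0.04 and -0.66 ± 0.04, in Nbeal2-/- and WT cells. Eda and Edar had no count in any library. A list of 28 genes acting just below these receptors was chosen with earlier results of these data known. Of these, 19 were higher and 4 lower with IL-33 in Nbeal2-/- cells (27.2% and 27.9% of all genes). In WT cells 15 were higher and 6 lower (28.9% and 28.6% of all genes). Traf1, an adaptor bound by TRAF2-recruiting receptors, rose by 7.30 ± 0.17 and 6.88 ± 0.16, and Tnfaip3, which encodes the NF-kB feedback inhibitor A20, by 2.31 ± 0.07 and 1.88 ± 0.07, in Nbeal2-/- and WT cells. Otulin, a deubiquitinase of linear ubiquitin chains, rose by 1.24 ± 0.05 and 1.17 ± 0.05, and the adaptor Traf2 by 1.01 ± 0.05 and 1.12 ± 0.05, while Birc3 (cIAP2) was 3.03-fold and 2.49-fold higher. Between genotypes 4 were higher and 0 lower in Nbeal2-/- cells with IL-33 (5.49% and 5.69% of all genes). In untreated cells 3 were higher and 6 lower, a share near that of all genes (18.4% and 17.5%). For the difference of responses 4 were higher and 0 lower (2.01% and 2.55% of all genes).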

How the data were processed

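Poly(A) RNA libraries were made with a directional kit, per the labels' protocols. The authors deposited counts per gene, RPM (reads per 1000000) and RPKM in tables of GRCm38 genes; bcl2fastq 2.20.0.422 and featureCounts 1.6.5 are named per the submitters' processing notes, and no aligner or strand setting is stated. The deposited RPM equalled the deposited counts per 1000000 within 4.91e-11. Genes without a count numbered 29066.

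From the counts, edgeR 4.0.16 (R 4.3.3; TMM scaling, filterByExpr, robust quasi-likelihood) fitted 4 group means to all 16 libraries and 15470 genes, with 5 contrasts and Benjamini-Hochberg adjustment over all genes (threshold 0.05). CPM are counts over the TMM-scaled totals of tested genes. RPM served the 1 RPM rule, and RPKM levels between genes. No libraries were duplicates (chi-square per degree of freedom at least 5.34). The fit was tested on simulated data with independent libraries and changes set only in genes above 1 RPM on average. That simulation does not cover the pairing of libraries or members with few counts. Members and lists were chosen with earlier results of these data known. Members at 1 RPM or more are given in every library where called with a change over 2-fold in a pairwise contrast or called for the difference of responses; Tnfsf8, Ltbr and Lta were added after their values were seen. Of the signalling list, up to 4 called genes with the smallest p per IL-33 contrast are named.

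Same-numbered libraries of a genotype deviated together (r of 0.223 to 0.387 in Nbeal2-/- and 0.289 to 0.585 in WT), so numbers pair the IL-33 comparisons. Across genotypes the libraries numbered 1 did so (r of 0.355 with IL-33 and 0.664 untreated). Those numbered 2 to 4 gave r of -0.121 to 0.0371 with IL-33 and -0.124 to 0.270 untreated. Alternatives were RLE scaling, library totals, no filter, DESeq2 1.42.0, limma 3.58.1 on log2(RPM + 1), a replicate block, only the groups compared and each library left out. A fit without the libraries numbered 1 and a fit with the Y-linked level as covariate were added after seeing the data.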

Additional observations from a re-analysis of the deposited data

Results flagged for a closer look

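The IL-33 response differed between genotypes for 3 members, by the test of the difference itself in edgeR. The log2 difference, Nbeal2-/- minus WT, was 0.493 for Tnfrsf13b (adjusted p = 0.000828), -1.15 for Tnfrsf11b (adjusted p = 0.0326) and -0.374 for Tnfsf14 (adjusted p = 0.0200).

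Of 88 groups of 4 libraries examined, 4 held a library far from the other 3, and chance alone gives about 1 in 20 groups. Tnfrsf1b was at 66.801 CPM in the second Nbeal2-/- library with IL-33, against 73.1 to 74.1 CPM in the others of its group. Tnfsf4 was at 1.928 CPM in the fourth WT library with IL-33, against 2.40 to 2.42 CPM. Tnfsf9 was at 18.245 CPM in the first WT library with IL-33, against 14.4 to 15.1 CPM. Cd70 was at 0.021 CPM, a single count, in the fourth untreated Nbeal2-/- library and at 0 in the others.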

How the results depend on the processing

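Over 72 single results for members, 1208 alternative values were computed. Of these 1130 kept direction and side of the threshold, 64 lost the call, 12 gained one and 2 changed sign. The 2 are uncalled values: for IL-33 in Nbeal2-/- cells, Tnfrsf4 ranged over -0.10 to 0.00812 and Tnfsf4 over -0.22 to 0.00227 without single libraries, the positive values being those without the first untreated and the first IL-33 library.

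Counts of called members moved as follows. Higher in Nbeal2-/- than in WT cells with IL-33 there were 2 by DESeq2 and 1 to 2 without single libraries. Lower in untreated Nbeal2-/- cells there were 2 with only the groups compared and 2 to 6 without single libraries. For the difference of responses, 3 were higher without the 4 libraries numbered 1 (Tnfrsf14 and Tnfrsf18 were added), and 1 was lower with no filter, 1 by limma and 1 to 2 without single libraries. The cause was not tested. The replicate block left the counts at 15 higher and 7 lower for IL-33 in Nbeal2-/- cells and 15 and 8 in WT cells. With the Y-linked level as a covariate no member call between genotypes or for the difference of responses changed.

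Library totals alone shifted the median log2 fold change of all genes by -0.114 for IL-33 in Nbeal2-/- cells and -0.0899 in WT cells. The share of calls that were higher became 33.5% and 38.0%, against 49.4% and 50.3% with TMM, and 13 members were higher in each genotype.

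Without single libraries the log2 value was 0.44 to 0.91 for Ltb and 0.23 to 0.43 for Tnfsf9 (IL-33 in Nbeal2-/-), 0.25 to 0.43 for Tnfsf9 and 0.22 to 0.34 for Ltbr (IL-33 in WT), and 0.19 to 0.34 for Tnfrsf9, -0.33 to -0.19 for Tnfrsf18 and -0.16 to -0.11 for Tnfrsf13b (untreated, Nbeal2-/- against WT). The call of Ltb was kept only without replicate 4 with IL-33 or untreated replicate 1, and that of Tnfsf9 only without untreated replicate 1 or 3 in Nbeal2-/- cells, and replicate 2 or 4 with IL-33 or untreated replicate 1 in WT cells. That of Ltbr was lost without replicate 2 or 3 with IL-33. Depth limits members with few counts, such as Cd70 and Cd40 without IL-33.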
